A study of Mus musculus with 6 samples.

Results

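Along mouse chromosome 6, neighbouring genes had lower or higher array signals together in 3 clones of induced pluripotent stem cells (iPSCs), each over a stretch with its own ends. The members described here are the 120 genes of 3 segments, Ndufb2-Dctn1, Tax1bp1-Mrps25 and Ccdc77-Grcc10, out of 276 chromosome 6 genes and 6017 genes genome-wide with a mean signal above 500 over 6 arrays. Each gene was represented by 1 probe set, the one with the highest mean log2 value among those annotated to that gene alone, and genes were ordered by their start in GRCm38. The shift of a gene in a clone is its log2(signal + 16) minus the median of the same value in 3 reference clones. The segments were chosen on these shifts, so the shifts of the members are a description and were not tested.

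Each of the 6 arrays held total RNA of 1 iPSC clone, so a clone is the only replicate and a difference between clones of a group includes the array's own error. Clones 1, 2 and 3, denoted (-)/(+), were reprogrammed without 3i and then maintained with 3i, and clones 4, 5 and 6, denoted (+)/(+), received 3i in both phases. The 3i mixture joins CHIR99021, an inhibitor of GSK3β, PD184352, an inhibitor of the MEK-ERK pathway, and SU5402, an inhibitor of the FGF receptor. All clones came from embryonic fibroblasts of Nanog-GFP-IRES-Puro transgenic mice, taken at embryonic day E13.5, to which retroviruses carrying Oct3/4, Sox2, Klf4 and c-Myc were given together with a dsRed marker. They were grown on feeder fibroblasts, so RNA of feeder cells can be part of a sample. In such bulk RNA, fewer cells with a transcript and less transcript per cell cannot be told apart, and a median signal cannot tell a shift in every cell from a larger one in some cells.

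In a diploid cell both copies of most genes are transcribed, and neighbouring genes are usually regulated by their own promoters. Genes side by side on a chromosome often belong to unrelated pathways. Pluripotent cells in culture are known to acquire gains and losses of chromosomes or of parts of them, and transcripts of the genes concerned then tend to follow the number of copies. From comparative genomic hybridisation arrays of its iPSC lines, the paper reported that both groups had similar frequencies of genetic alterations. DNA copy number was not analysed here, and no cause of the shifts below was tested.

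The 10 pluripotency markers examined, among them Pou5f1, Sox2 and Nanog, all had a mean signal above 500, and their summed signal was 120464 to 126093 in the (-)/(+) clones and 134364 to 142927 in the (+)/(+) clones. The 12 fibroblast markers summed to between 25048 and 33123 in the (-)/(+) clones and to between 16638 and 19656 in the (+)/(+) clones. None of them was listed at 0, the lowest mean signal being 21.4 for Lum. Only 4 of the 12 fibroblast markers had a mean signal above 500. The sum over all 12 moved with the groups, and its part in the results was not tested. The median shift of each other chromosome lay between -0.07 and 0.08 in clone 2 and between -0.06 and 0.08 in clone 3. In clone 1 it lay between -0.06 and 0.04, chromosome 11 aside, whose median shift was 0.33. Clone 4, a reference clone, was 0.44 above the mean of the other two (+)/(+) clones over chromosome 8.

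**Figure D1:**
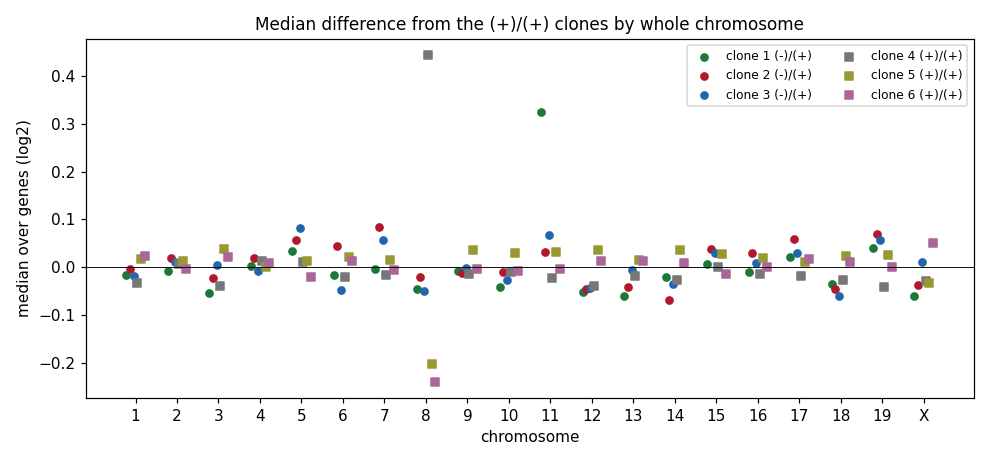
Median log2 difference over the genes of each chromosome, with circles for clones 1 to 3 against the median of the (+)/(+) clones and squares for clones 4 to 6 each against the mean of the other two (+)/(+) clones. Chromosome 6 as a whole lay near 0 in clones 1 to 3, at -0.02, 0.05 and -0.05, while chromosome 11 in clone 1 and chromosome 8 in clone 4 stood apart.

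The steps found below fall between named pairs of genes. The bases upstream of the genes that form the ends of the lowered stretches, of Mad2l1, whose drop was the largest in the stretch of clone 2, and of Uba3 just beyond a step are shown. The sequences are RefSeq's, build GRCm38.p6, printed 5′ to 3′ on the gene's strand and ending before the annotated gene, and capitals mark GC boxes (GGGCGG or CCGCCC) and CCAAT boxes (CCAAT or ATTGG), each searched on both strands.
Pdia4, chr6:47813513-47813612, minus strand: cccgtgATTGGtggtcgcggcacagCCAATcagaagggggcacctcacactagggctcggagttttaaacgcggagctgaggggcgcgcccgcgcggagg
Stk31, chr6:49395406-49395505, plus strand: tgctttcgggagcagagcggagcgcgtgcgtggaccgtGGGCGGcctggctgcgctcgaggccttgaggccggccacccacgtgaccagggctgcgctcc
Mad2l1, chr6:66535121-66535220, plus strand: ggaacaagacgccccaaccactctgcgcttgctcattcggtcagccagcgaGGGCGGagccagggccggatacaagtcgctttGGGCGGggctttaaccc
Suclg1, chr6:73248405-73248504, plus strand: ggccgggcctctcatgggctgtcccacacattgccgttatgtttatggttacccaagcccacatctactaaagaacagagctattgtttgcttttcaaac
Suclg2, chr6:95718859-95718958, minus strand: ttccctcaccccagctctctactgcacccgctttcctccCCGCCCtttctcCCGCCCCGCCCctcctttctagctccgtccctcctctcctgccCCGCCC
Uba3, chr6:97205648-97205747, minus strand: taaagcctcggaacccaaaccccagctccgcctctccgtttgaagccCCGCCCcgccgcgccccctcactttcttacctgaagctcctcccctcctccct
The windows of Suclg2 and Uba3, which stand on opposite sides of a step, both hold a GC box, with 4 and 1 matches. At the left step of clone 2, the window of Stk31 held 1 match. That of Tra2a, not printed and only 54 bases long, held 0. Over the 250 bases before each start, a GC box was found in 64 of the 104 members that matched a promoter entry (61.5%), in 85 of 141 genes of chromosome 6 outside the segments (60.3%) and in 63.5% of the 4977 matched genes above the signal minimum genome-wide. A CCAAT box was found in 40.4%, 35.5% and 38.0% of the same sets. Of all 27025 genes with a promoter entry, 32.7% held a GC box and 34.2% a CCAAT box. These matches are letters in a window, not sites of binding.

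The segment Ndufb2-Dctn1 runs over chr6:39592565-83200118 and holds 60 members, Tax1bp1-Mrps25 runs over chr6:52713692-92184023 and holds 80, and 40 genes from Tax1bp1 to Dctn1 belong to both. Ccdc77-Grcc10, chr6:120324322-124741069, holds 20. The members are 60 of 269, 80 of 293 and 20 of 52 genes of these spans that have a probe set of their own, and the others were below the signal minimum. Vamp8, a vesicle fusion protein, was the dimmest member of the first and second segments with a mean signal of 519 and shifts of -0.01, -0.88 and -0.67 in clones 1, 2 and 3. Just under the minimum, Dennd11 at 492 had -0.10 in clone 2, and 1600020E01Rik at 498 had -0.95. In Ccdc77-Grcc10, Cecr2 at 556 was just inside with 0.70 in clone 1, and Pex5 at 484 just outside with 0.71.

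Over Tax1bp1-Mrps25 the median shift was -0.05 in clone 1, -0.74 in clone 2 and -0.15 in clone 3. Over Ndufb2-Dctn1 it was -0.13, -0.70 and -0.57 in the same order, and over Ccdc77-Grcc10 it was 0.43, 0.27 and -0.13. The 3 (+)/(+) clones, each set against the mean of the other two, stayed between -0.10 and 0.09 in all 3 segments, with an SD over those clones of 0.047, 0.027 and 0.096 for Ndufb2-Dctn1, Tax1bp1-Mrps25 and Ccdc77-Grcc10. In Tax1bp1-Mrps25, 77 of 80 members in clone 2 were below all 3 (+)/(+) arrays, where 33.1% of the genes of other chromosomes were. In Ndufb2-Dctn1, 47 of 60 members were below them in clone 2 and 49 of 60 in clone 3, the share on other chromosomes being 29.8% for clone 3. In Ccdc77-Grcc10, 15 of 20 members of clone 1 were above all 3, against 32.7% of the genes of other chromosomes, or 28.3% with chromosome 11 also left out. The rule chose these members by the same values, so nothing is read from the counts.

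The segments' ends are multiples of 20 genes in the order along the chromosome (members 61 to 120, 81 to 160 and 201 to 220), and the signals stepped elsewhere. A single stretch per clone was therefore fitted by the least sum of absolute deviations from 1 median inside and 1 outside, a description chosen after the values were seen. In clone 2 it ran from Stk31 to Suclg2, chr6:49395506-95718858, 91 genes over 46.3 Mb. In clone 3 it ran from Pdia4 to Suclg1, chr6:47796141-73276907, 46 genes over 25.5 Mb. In clone 1 the stretch was a raised one, from Cecr2 to Mrpl51, chr6:120666314-125194392, 28 genes over 4.53 Mb. The stretches were fitted to the same shifts, so nothing is read from the counts of their genes beyond the (+)/(+) arrays below.

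**Figure D2:**
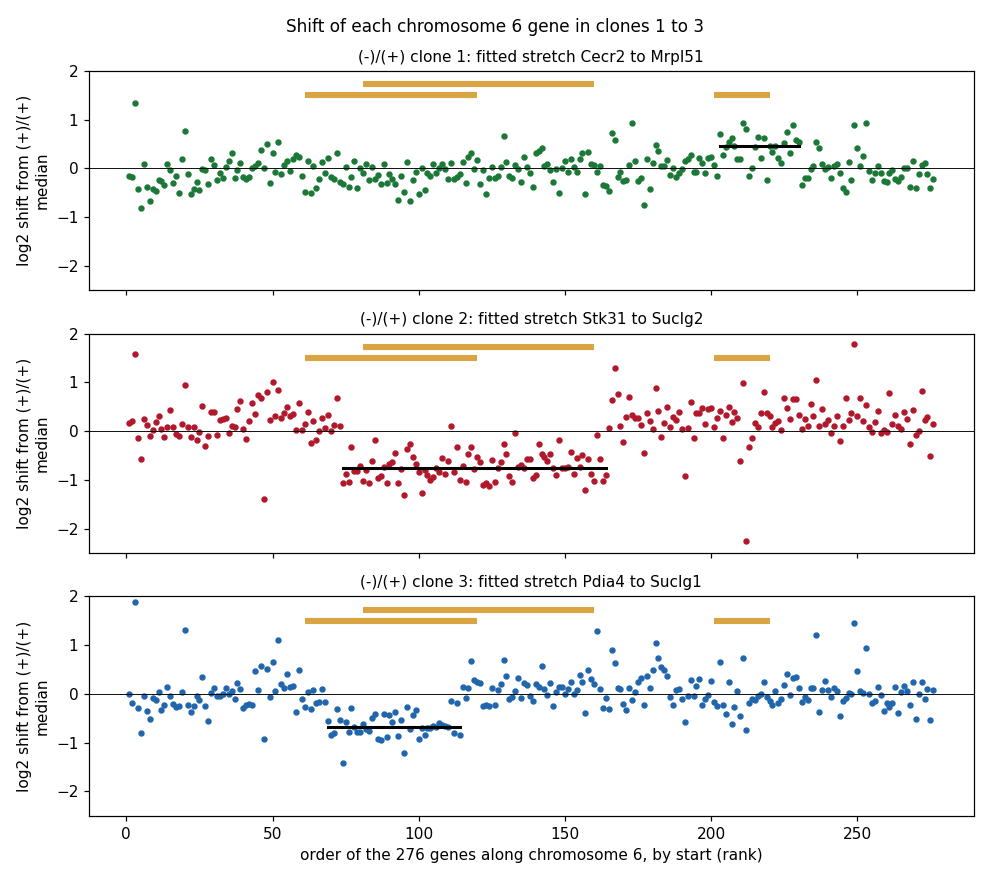
Shift of each of the 276 chromosome 6 genes (log2, against the median of the (+)/(+) clones) in their order along the chromosome, 1 panel per (-)/(+) clone, with the 3 segments as orange bars and the median of the fitted stretch as a black line. The lowered stretches of clones 2 and 3 start and end at different genes, at medians of -0.75 and -0.68, and clone 1 has a shorter raised stretch at 0.46.

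Clone 2 had the longest lowered stretch. Its median shift from Stk31 to Suclg2 was -0.75 (quartiles -0.92 and -0.55), a signal 0.595 times that of the (+)/(+) clones, and 87 of the 91 genes were below all 3 (+)/(+) arrays. On other chromosomes 33.1% of genes were below in clone 2. At the left end the signals of Tra2a, a splicing regulator, were 6639, 8694 and 5533 in the (-)/(+) clones, given in order from 1 to 3, against 7579, 8068 and 8607 in the (+)/(+) clones, from 4 to 6, the order kept for all signals below. Those of Stk31, a serine/threonine kinase and the next gene measured, were 851, 498 and 388 against 854, 1061 and 1077. Clone 2 thus held the highest Tra2a signal of the 6 clones, and its Stk31 signal was under every (+)/(+) value, at a distance of 0.13 Mb between the genes. At the right end Suclg2, a subunit of the succinyl-CoA ligase of the citric acid cycle, had 3333, 2272 and 4052 against 4344, 4279 and 4096. Uba3, a subunit of the NEDD8-activating enzyme that lies 1.46 Mb further, had 4669, 6734 and 5136 against 6404, 6403 and 7643. In clone 2 the Suclg2 signal was the lowest of the 6, while the Uba3 signal lay inside the (+)/(+) range.

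In clone 3 the lowered stretch started earlier and ended earlier. Its median shift from Pdia4 to Suclg1 was -0.68 (quartiles -0.79 and -0.50), a signal 0.624 times that of the (+)/(+) clones, and 45 of 46 genes were below all 3 (+)/(+) arrays. On other chromosomes 29.8% of genes were below in clone 3. To the left, Ezh2, the methyltransferase of Polycomb repressive complex 2, had signals of 6955, 7806 and 6669 against 6858, 7435 and 7777. Pdia4, a protein disulfide isomerase of the endoplasmic reticulum 0.20 Mb beyond Ezh2, had 1660, 1806 and 966 against 1670, 1289 and 1435. The Pdia4 signal of clone 3 was the lowest of the 6, and that of clone 2 the highest. These ranks were the same at Ezh2, and the shift of clone 3 was -0.16 at Ezh2 and -0.56 at Pdia4. Pdia4, Zfp212, Malsu1, Igf2bp3 and Tra2a, the 5 genes lowered in clone 3 ahead of the stretch of clone 2, had a median shift of -0.56 in clone 3 and 0.13 in clone 2. At the right end Suclg1, the alpha subunit of the same enzyme, had 4888, 2629 and 2947 against 5278, 4929 and 5365. Mrpl19, a protein of the mitochondrial ribosome and the next gene above the minimum, had 1794, 990 and 1824 against 1872, 1643 and 1586. Clones 2 and 3 were both low at Suclg1, and clone 2 alone was low at Mrpl19. A gap of 8.68 Mb without a gene above the minimum lies between these genes, so the place of this step is known no better than that.

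Taken in parts, the 41 genes from Stk31 to Suclg1 had median shifts of -0.15, -0.81 and -0.69 in clones 1, 2 and 3, and 40 of them were below all (+)/(+) arrays in clone 2 and 40 in clone 3. The 50 genes from Mrpl19 to Suclg2 had 0.02, -0.72 and 0.12, with 47 below in clone 2 and 11 in clone 3. The 8 members from Ndufb2 to Ezh2, which open the segment Ndufb2-Dctn1, had 0.10 in clone 2 and -0.16 in clone 3. Snx10, Skap2 and Hibadh before Tax1bp1 and Magi1, Kbtbd8 and Suclg2 after Mrps25 lie outside the segment Tax1bp1-Mrps25, and their shifts in clone 2 were -0.81, -0.81, -0.71, -0.57, -1.01 and -0.91. The lowered run of clone 2 thus passed both ends of that segment, and Ndufb2-Dctn1 joined genes that were not lowered to genes that were.

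**Figure D3:**
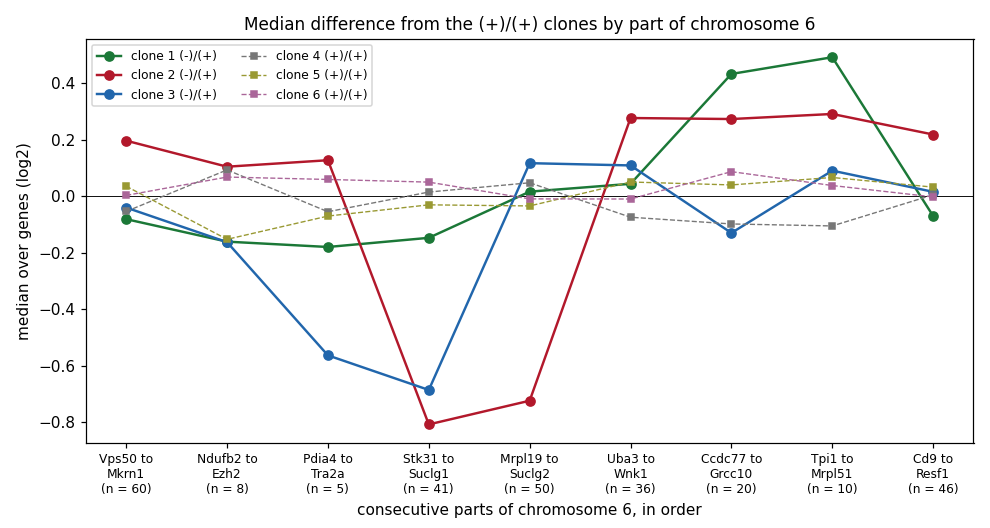
Median log2 difference from the (+)/(+) clones over the genes of 9 consecutive parts of chromosome 6, named by their first and last gene, with solid lines for clones 1 to 3 and dashed lines for clones 4 to 6 (each against the mean of the other two). Clones 2 and 3 are both low from Stk31 to Suclg1, only clone 2 is low from Mrpl19 to Suclg2, and from Ccdc77 to Mrpl51 clone 1 is highest, at 0.43 and 0.49, with clone 2 at 0.27 and 0.29. In the parts just before and after, clone 2 is at 0.28 and 0.22.

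Members of unrelated function shared the drop. Mad2l1, a protein of the spindle assembly checkpoint, had signals of 7212, 4102 and 4342 against 10121, 9048 and 11823. The groups did not overlap, and clones 2 and 3 were far below clone 1. Its shift was -1.30 in clone 2 and -1.22 in clone 3, the largest drop of the stretch in clone 2. Cycs, cytochrome c of the respiratory chain, had 17786, 11233 and 13433 against 23090, 21602 and 23208. Rmnd5a, part of a ubiquitin ligase, had 2384, 984 and 1453 against 2027, 2460 and 2380, so that clone 1 lay among the (+)/(+) clones. The shifts of Rmnd5a were 0.00, -1.26 and -0.71 in clones 1, 2 and 3.

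Clone 1 had smaller median shifts over the same genes. Over the 41 genes from Stk31 to Suclg1 it was -0.15, and 24 of them were below all (+)/(+) arrays. In Ndufb2-Dctn1, 32 of 60 members of clone 1 were below them, where 31.4% of the genes of other chromosomes were. Over the 50 genes from Mrpl19 to Suclg2, 19 were below. Its shifts ran from -0.67 to 0.66 in Tax1bp1-Mrps25, with quartiles of -0.22 and 0.09, and those of clone 2 ran from -1.30 to 0.10, with quartiles of -0.92 and -0.54. In clone 3 the quartiles of this segment, -0.62 and 0.15, lay far apart, since the segment spans the step after Suclg1. Examples farther out on either side of that step follow, Rpn1 and Immt among them picked after their values were seen. Kcmf1, a ubiquitin ligase, had signals of 5866, 3808 and 3912 against 6790, 7757 and 6690. Rpn1, a subunit of the oligosaccharyltransferase of the endoplasmic reticulum that lies beyond the step, had 12198, 6561 and 11050 against 11069, 10831 and 11046. Immt, an organiser of mitochondrial cristae before the step, had 4116, 2033 and 2466 against 3651, 3894 and 4083. Mrps25, a mitochondrial ribosomal protein beyond it, had 1806, 832 and 1971 against 1712, 1541 and 1775. Clone 2 was the lowest of the 6 for all 4 of these genes, and clone 3 was low for Kcmf1 and Immt only.

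Among members in the lists of genes kept by function, the 2 chromatin genes of the shared part were Kdm3a, a histone H3 lysine 9 demethylase, and Smarcad1, a chromatin remodeller. Kdm3a had signals of 5597, 3219 and 3680 against 6012, 5532 and 5986, and Smarcad1 had 2255, 1449 and 1709 against 2824, 2146 and 2499. Both were below all (+)/(+) arrays in clones 2 and 3. All 3 listed genes of DNA replication and repair in the stretch of clone 2 were below them in that clone, with a median shift of -0.88. So were 87 of all 91 genes of that stretch, and nothing about function is read from such list counts. Mcm2, a subunit of the replicative helicase, had 4650, 2461 and 4553 against 4133, 4556 and 4545. Ruvbl1, an ATPase of chromatin remodelling complexes, had 3305, 2089 and 3740 against 4050, 3214 and 3464. Pole4, a subunit of DNA polymerase epsilon, had 2682, 1590 and 3115 against 3314, 3350 and 2870. For these genes clone 2 held the lowest value of the 6, and clone 3 lay inside the (+)/(+) range.

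The list counts that follow stand beside the 87 of all 91 genes of the clone 2 stretch that were below the (+)/(+) arrays. Of the RNA processing genes listed, 7 lay in the stretch of clone 2 and all 7 were below, with a median shift of -0.76. Lsm3, a small nuclear ribonucleoprotein component, had signals of 5636, 3531 and 6237 against 8142, 6585 and 8405. Its shift in clone 2 was -1.20. Of the genes of metabolism and mitochondria, 11 lay in the stretch of clone 2 and all 11 were below, with a median of -0.62. Dguok, a mitochondrial deoxyguanosine kinase, had the largest of these shifts at -1.12, from signals of 614, 315 and 591 against 623, 702 and 715. Hk2, a hexokinase of glycolysis, had 7333, 4532 and 6786 against 5177, 6405 and 6234. Of the genes of protein folding, transport and turnover, 9 lay in the stretch and all 9 were below, with a median of -0.76. Cct7, a subunit of the cytosolic chaperonin, had 15711, 9232 and 16232 against 19357, 15959 and 17503. Copg1, a coat protein of Golgi vesicles, had 1825, 984 and 1891 against 1591, 1840 and 1964, with clones 1 and 3 inside the (+)/(+) range.

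Some genes of the same lists lay inside the stretch of clone 3, and each of those was below the (+)/(+) arrays. So were 45 of all 46 genes of that stretch. The median shifts there were -0.62 for the 2 chromatin genes, -0.54 for the 3 RNA processing genes, -0.78 for the 3 genes of metabolism and mitochondria and -0.63 for the 3 of protein folding, transport and turnover. Hibadh, an enzyme of valine breakdown, had signals of 3147, 1912 and 1822 against 2864, 3418 and 3144. Tax1bp1, an autophagy receptor, had 2659, 1396 and 1862 against 2851, 2674 and 2968. For both, clones 2 and 3 were low and clone 1 lay inside or just under the (+)/(+) range.

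A few genes did not follow. In clone 2 the 4 genes of the stretch not below all (+)/(+) arrays were Tcf7l1, Rab11fip5, Dusp11 and Trh, and in clone 3 it was Tcf7l1 alone. Tcf7l1, a transcription factor that represses Wnt targets in pluripotent cells, had signals of 1305, 1296 and 1093 against 1068, 1460 and 1210, and its other probe set, with a mean signal of 388, was higher by 0.89 in clone 2. Dusp11, an RNA phosphatase, had a shift of -0.05 in clone 2 with the probe set used and -0.82 with its other probe set, so its probe sets disagree. Trh, the precursor of thyrotropin-releasing hormone, varied widely, with 593, 585 and 1547 against 1198, 499 and 621. Gars, glycyl-tRNA synthetase, was only weakly lowered, with 7033, 7259 and 6185 against 8539, 7994 and 8217.

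Bright genes moved less with some probe sets. Serbp1, an mRNA-binding protein and the brightest member, had signals of 26934, 21977 and 23391 against 32988, 28767 and 31752. Its shift in clone 2 was -0.53 with this probe set and -0.80 with another whose mean signal was 16817. Hnrnpa2b1, a splicing factor, had -0.32 with the probe set used, at a mean signal of 18113, and -0.70, -0.88 and -0.63 with the others. When the stretch of clone 2 was divided by mean signal, the median shift was -0.63, -0.79 and -0.76 in the lowest, middle and highest part, and in clone 3 it was -0.70, -0.67 and -0.66. Further probe sets of the same genes with a mean signal above 500, 51 in clone 2 and 25 in clone 3, were all shifted downwards, with medians of -0.76 and -0.66. Of their probe sets at or below that signal, 68 of 98 in clone 2 and 34 of 46 in clone 3 were, with medians of -0.30 and -0.37.

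Genes too dim to be members, at a mean signal of 100 to 500, had smaller median shifts in clones 2 and 3 but not in clone 1. In the stretch of clone 2, 73 genes with a mean signal of 100 to 500 had a median shift of -0.53, where 4024 such genes of other chromosomes had 0.11. In the stretch of clone 3, 38 such genes had -0.30 against 0.10. In the raised stretch of clone 1, 14 such genes had 0.51 against 0.11, beside 0.46 over its 28 brighter genes. Below a mean signal of 100 the medians were 0.10 over 29 genes in clone 1, 0.01 over 170 genes in clone 2 and -0.02 over 105 genes in clone 3. Whether signals that low stand above background was not tested.

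The raised stretch of clone 1 held genes of pluripotency. From Cecr2 to Mrpl51 its median shift was 0.46 (quartiles 0.22 and 0.62), a signal 1.37 times that of the (+)/(+) clones, and 25 of 28 genes were above all 3 (+)/(+) arrays. On other chromosomes 32.7% of genes were above in clone 1, or 28.3% with chromosome 11 also left out. Kdm5a, a histone demethylase to the left of it, had signals of 1386, 1874 and 1309 against 1412, 1554 and 1648, and Cecr2, a bromodomain protein, had 706, 578 and 683 against 415, 526 and 427. All 3 (-)/(+) clones were above the (+)/(+) clones at Cecr2, so the left end of the stretch rests on a gene that was not particular to clone 1. The 10 genes from Tpi1 to Mrpl51, outside the segment Ccdc77-Grcc10, had a median of 0.49 in clone 1, and all 10 were above the (+)/(+) arrays. Clone 2 was raised there too, at 0.29 with 8 of 10 above, and its median over the whole stretch was also 0.29. On other chromosomes 35.2% of genes were above in clone 2. Its rise was not particular to the stretch, with 0.28 from Uba3 to Wnk1 and 0.22 after Mrpl51. Lpcat3, a phospholipid acyltransferase, had 1975, 1335 and 1228 against 1396, 1260 and 1068, and here clone 1 stood above every other clone. M6pr, a receptor that carries lysosomal enzymes, had 6327, 5975 and 3809 against 4098, 4723 and 4577, high in clones 1 and 2.

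Within Ccdc77-Grcc10 the shifts of clone 1 ran from -0.24 to 0.93. Ptpn6, a phosphatase of blood cells, was the lowest, with signals of 607, 933 and 693 against 722, 720 and 792. Phb2, a prohibitin of the mitochondrial inner membrane, had 11018, 12536 and 8585 against 7201, 6443 and 8036, above every (+)/(+) value in all 3 (-)/(+) clones and highest in clone 2. Bid, a pro-apoptotic protein of the BCL2 family, had 1176, 1142 and 960 against 1098, 731 and 808, so that clone 4 lay near clones 1 and 2. A2m, a protease inhibitor, had 5611, 4163 and 2365 against 1107, 3634 and 3939, a spread among the (+)/(+) clones larger than the shift of 0.62 in clone 1. Beyond the segment but inside the stretch, Ncapd2, a subunit of condensin, had 3517, 3707 and 2986 against 2179, 2390 and 2342, and Chd4, the helicase of the NuRD complex, had 1691, 1616 and 1338 against 1150, 1360 and 1472. At the right end Mrpl51, a protein of the mitochondrial ribosome, had 10540, 9089 and 7818 against 7205, 7053 and 7891. Cd9, a tetraspanin of the cell surface and the next gene, had 8003, 10503 and 9034 against 9383, 10173 and 10684. Clone 1 thus held the highest Mrpl51 signal and the lowest Cd9 signal of the 6 clones. Further probe sets of genes in this stretch, 15 with a mean signal above 500, were all shifted upwards in clone 1, with a median of 0.48, and so were 15 of 17 at or below that signal.

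The pluripotency genes of the raised stretch did not move as a group. Nanog, a core transcription factor of pluripotency, had signals of 14402, 12676 and 13966 against 15744, 16347 and 15986, and its shift in clone 1 was -0.15. Slc2a3, a glucose transporter, had 23112, 20740 and 21309 against 23273, 22492 and 22908. Phc1, a Polycomb protein, had 7931, 8425 and 7251 against 5113, 7791 and 6947. Gdf3, a TGF-beta family ligand, had 3363, 3510 and 2955 against 2004, 1657 and 1759. Gdf3 was high in all 3 (-)/(+) clones, with shifts of 0.93, 0.99 and 0.74. Dppa3, a maternal factor also expressed in naive pluripotent cells, had 5759, 672 and 1938 against 2439, 3270 and 4584. The 6 clones spread widely for Dppa3, the highest being clone 1 and the lowest clone 2, with shifts of 0.81 and -2.26.

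**Figure D4:**
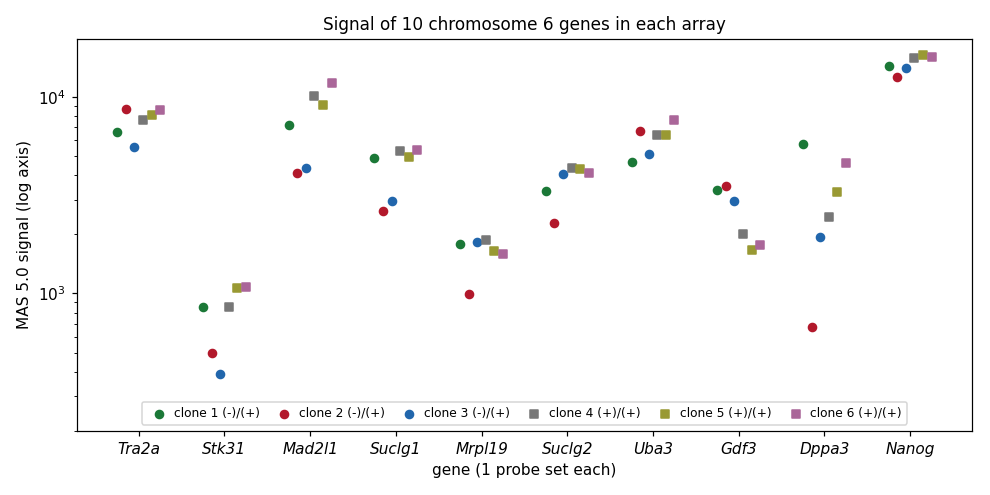
MAS 5.0 signal on a log axis of 10 chromosome 6 genes in each of the 6 arrays, circles for the (-)/(+) clones and squares for the (+)/(+) clones. Clones 2 and 3 are low at Stk31, Mad2l1 and Suclg1, clone 2 is the lowest of the 6 at Mrpl19 and Suclg2, and Dppa3 spreads from 672 in clone 2 to 5759 in clone 1.

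Along the rest of chromosome 6, the median of clone 2 lay above the (+)/(+) clones. Over the 185 genes outside its stretch the median shift was 0.22, a signal 1.16 times that of the (+)/(+) clones, and 119 of them (64.3%) were above all 3 (+)/(+) arrays, where 35.2% of the genes of other chromosomes were. These genes are what a fit to the same shifts left over, and some are members, so nothing is read from that share. The median was 0.17 over the 73 genes to the left and 0.24 over the 112 to the right. In Ccdc77-Grcc10, 13 of 20 members of clone 2 were above the (+)/(+) arrays. The genes outside the stretches of clones 3 and 1 had medians of 0.02 and -0.06. Within chromosome 6 of clone 2, the raised genes on both sides thus met the lowered ones at Stk31 and after Suclg2.

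**Figure D5:**
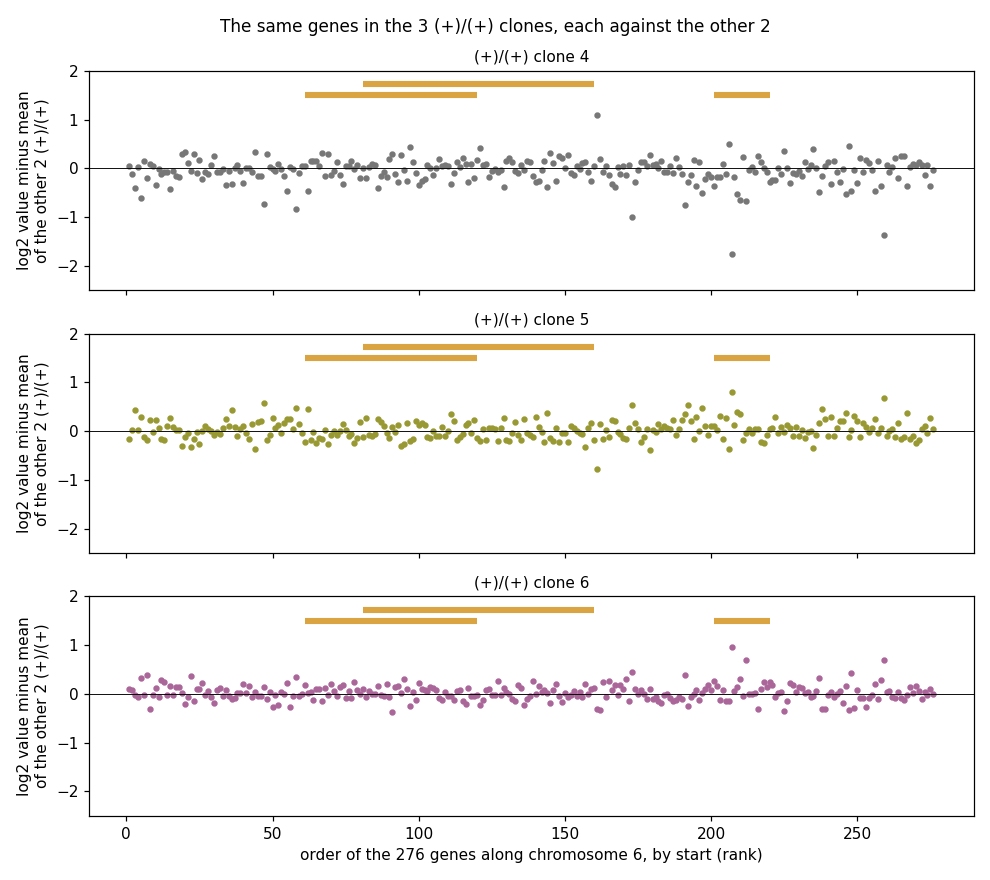
The 276 genes in the same order for the 3 (+)/(+) clones, each gene as its log2 value minus the mean of the other two (+)/(+) clones, with the segments as orange bars. The medians over the segments lie between -0.10 and 0.09.

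Between the groups as labelled, a fit with limma over 22518 probe sets called 9 of the 120 members higher and 1 lower in (+)/(+) at an adjusted p under 0.05. Of all 6017 genes, 2.33% were called higher and 1.46% lower. Of the 156 chromosome 6 genes outside the segments, 0 were called higher and 12 (7.69%) lower. The members were chosen by the same contrast and nothing is read from these counts. The 9 were Tigd2, Mad2l1, Cycs, Skap2, Kbtbd2, Kcmf1, Krcc1, Chmp3 and Gadd45a, all in the part lowered in both clones 2 and 3, and the 1 was Gdf3. Tigd2 had signals of 1251, 937 and 1069 against 1630, 1967 and 1992, and Gadd45a, a stress-induced growth arrest gene, had 1300, 1714 and 1258 against 2785, 2071 and 2022. For each of the 9, clone 1 lay below the (+)/(+) clones too, which a call between the groups favours. Of all 41 genes from Stk31 to Suclg1, clone 1 was below them for 24. The count called higher changed with the clone left out, in fits of 1 array fewer. It was 31 without clone 1, 2 without clone 2, 1 without clone 4 and 0 without clone 3, 5 or 6, where limma gave 43, 34 and 32 members an unadjusted p under 0.05.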

How the data were processed

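Biotin-labelled RNA of 6 iPSC clones was hybridised by the authors to single-colour Affymetrix arrays. The values deposited are MAS 5.0 signals, a linear intensity for each of 45101 probe sets. The deposited intensities had been scaled so that each array's mean without its highest and lowest 2% was 500. Raw scans, scan dates and detection calls were not used here. Probe sets with a single gene symbol (34945, of which 34741 matched a RefSeq gene of GRCm38.p6 by Entrez ID) were used, with 1 per gene as described above. Signals were analysed as log2(signal + 16). Groups were compared with limma 3.58.1 in R 4.3.3 (trend, Benjamini-Hochberg adjustment) over the 22518 non-control probe sets above the median mean. The same fit was also run on simulated data. Single stretches had at least 8 genes. The rule for named genes took those at the ends of segments, those with the largest or opposite shifts and the brightest. It also took those called between groups and those in the function lists. Genes flanking the fitted stretches and further examples, among them Rpn1, Immt, Bid and A2m, were chosen after their values were seen. The segments, gene lists and tests were chosen with earlier results of these data known. The precision is limited by 3 clones per group and 1 array per clone.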

Additional observations from a re-analysis of the deposited data

How the results depend on the processing

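All 9 median shifts of the segments in clones 1 to 3 kept their direction under each of 14 alternatives, except that of Tax1bp1-Mrps25 in clone 1, which came to 0.00 with the median of the other 5 clones as reference. With each array scaled to a common median over all probe sets, the median of all 6017 genes moved to -0.15, -0.14 and -0.12 in clones 1, 2 and 3. The shifts then were -0.31, -0.85 and -0.69 for Ndufb2-Dctn1, -0.21, -0.92 and -0.30 for Tax1bp1-Mrps25 and 0.23, 0.12 and -0.25 for Ccdc77-Grcc10. Relative to that median they were -0.71 and -0.57 for Ndufb2-Dctn1 in clones 2 and 3, -0.78 for Tax1bp1-Mrps25 in clone 2 and 0.38 for Ccdc77-Grcc10 in clone 1. The shift of clone 2 outside its stretch was 0.06 on that scale, and 0.20 relative to the median.

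Averaging every probe set annotated to a gene, Ndufb2-Dctn1 came to -0.06, -0.47 and -0.40 and Tax1bp1-Mrps25 in clone 2 to -0.56. With the other 5 clones as reference, a choice made after the values were seen, Ndufb2-Dctn1 came to -0.02 and -0.63 in clones 1 and 2 and Tax1bp1-Mrps25 to -0.70 and -0.05 in clones 2 and 3. Centred on the rest of chromosome 6, the shifts of clone 2 were -0.91, -0.96 and 0.05 for Ndufb2-Dctn1, Tax1bp1-Mrps25 and Ccdc77-Grcc10. A minimum of 200 gave -0.61 for Ndufb2-Dctn1 in clone 2 and -0.02 and -0.09 for Tax1bp1-Mrps25 in clones 1 and 3, a minimum of 1000 gave -0.08 for the latter in clone 1, and quantile normalization -0.07 in clone 3. Without 5 genes at each end, Ndufb2-Dctn1 came to -0.74 and -0.66 in clones 2 and 3. The cause of these moves was not tested.

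The fitted stretches, also added after the values were seen, kept their first gene under 10, 10 and 11 of 11 alternatives in clones 1, 2 and 3 and their last gene under 11, 11 and 10. A smallest stretch of 16 genes, 1 of the alternatives, could not change the ends, since every fitted stretch was longer. Under a minimum of 1000, Cecr2 and Stk31 were too dim to be kept as first genes. Of the 9 members that limma called higher in (+)/(+) and the 1 called lower, the counts were 5 and 2 after quantile normalization, 23 higher with a common median, 1 higher with no filter, 4 higher above a mean signal of 500, 33 and 2 with array weights, and 0 higher without the trend, where limma gave 31 an unadjusted p under 0.05. The methods' t-test gave 18 and 3 at an unadjusted p under 0.05, and 0 and 0 after Benjamini-Hochberg adjustment. Leaving out 1 clone at a time gave 0 to 31 higher and 0 to 2 lower, the 0 lower being without clone 6, where 4 had an unadjusted p under 0.05. No paired analysis was possible because the groups share no replicate number. The arrays carry no second array of a clone, so array error was not measured.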
